A study of Mus musculus with 6 samples.

Results

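IL-33 and its receptor were followed through every cell type of mouse skin with 3 genes: Il33, which encodes the cytokine, Il1rl1, which encodes the receptor ST2, and Il1rap, which encodes the accessory chain that ST2 needs to signal. They are 3 of the 32285 genes counted, and all 3 were found by symbol. They were chosen by the UMI counts and shares of positive cells that an earlier look at these data had shown, so levels are given as a description without a test, and the fitted changes below, each taken from a fit over all genes of a cell type, are not independent support for any pattern. The study profiled single cells from skin of Balb/c mice after 10 days of epicutaneous sensitization, with the skin taken 2 days later and digested with enzymes. The 6 libraries form 2 groups of 3: EC-SAL, labelled as the control, and EC-OVA, labelled as ovalbumin-sensitized. No genetic change is named for either group. The labels call the tissue of all libraries sensitized skin, the controls included, and give the cell type as CD4 although keratinocytes, stroma, vessels, nerve sheath and leukocytes are all present, so both were read from the group labels and the data. Nothing says that the replicates came from separate mice, so that p-values here reflect the variation among libraries alone, part of which can be technical. The fits also borrow spread from all genes, so a very small p-value does not measure the spread of a single gene among 3 libraries.

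IL-33 is a cytokine of the IL-1 family that is stored in the nucleus of barrier and stromal cells and is released when those cells are damaged. Outside the cell it binds ST2, which pairs with the accessory protein and signals through MyD88 and IRAK kinases to NF-kB and MAP kinases. A shorter, secreted form of ST2 binds IL-33 without signalling. In skin the pathway is known for its action on mast cells, basophils, group 2 innate lymphoid cells and regulatory T cells in allergic inflammation.

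On the mm10 build (GRCm38, GENCODE annotation), Il33 (ENSMUSG00000024810) lies on the plus strand at chr19:29925114-29960718 and Il1rl1 (ENSMUSG00000026069) on the plus strand at chr1:40429570-40465415, between Il1rl2 and Il18r1. Il18r1, which encodes an IL-18 receptor chain, begins 137 bases beyond the end of Il1rl1 on the same strand. Il1rap (ENSMUSG00000022514) lies on the plus strand at chr16:26581704-26730117 and overlaps the antisense gene Gm20319. The sources used here do not state whether counting used the strand, so reads of that pair may be mixed. Il1rl1 has annotated transcripts for a receptor of 567 residues and for a secreted form of 337 residues with another 3′ end, and the counts sum both. Il33 encodes 266 residues.

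RefSeq places 2 starts in Il33, 20677 bases apart, and 2 in Il1rl1, 10059 bases apart. Their upstream windows are shown because both genes differed between the groups in the same fibroblasts while Il33 was also abundant in keratinocytes, where Il1rl1 was almost undetected, so a reader can see which letters lie before each start. Each window runs from 250 to 6 bases before the start in the C57BL/6J reference (GRCm38.p6, plus strand), and these reads from the 3′ ends of transcripts do not tell which start was used. Capitals mark the matches to the motifs that were searched on both strands: the GATA core AGATAA, the TATA box TATAAA, the AP-1 core TGANTCA, and the STAT6 and NF-kB motifs, given by name.
Il33 first start, chr19:29924863-29925107: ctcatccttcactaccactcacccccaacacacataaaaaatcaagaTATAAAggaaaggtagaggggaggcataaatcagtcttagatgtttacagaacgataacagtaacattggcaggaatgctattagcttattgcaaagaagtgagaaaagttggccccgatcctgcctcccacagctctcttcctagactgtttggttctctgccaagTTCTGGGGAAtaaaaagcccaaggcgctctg
Il33 second start, chr19:29945540-29945784: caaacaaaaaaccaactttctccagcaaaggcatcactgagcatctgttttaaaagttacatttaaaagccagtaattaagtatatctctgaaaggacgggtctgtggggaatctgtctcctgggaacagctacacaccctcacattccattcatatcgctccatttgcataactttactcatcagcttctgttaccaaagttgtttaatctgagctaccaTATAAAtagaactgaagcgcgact
Il1rl1 first start, chr1:40429320-40429564: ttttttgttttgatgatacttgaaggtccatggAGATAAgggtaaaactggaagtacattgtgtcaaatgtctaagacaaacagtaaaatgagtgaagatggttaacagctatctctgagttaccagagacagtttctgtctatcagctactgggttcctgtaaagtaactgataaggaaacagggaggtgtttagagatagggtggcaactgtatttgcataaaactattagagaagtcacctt
Il1rl1 second start, chr1:40439379-40439623: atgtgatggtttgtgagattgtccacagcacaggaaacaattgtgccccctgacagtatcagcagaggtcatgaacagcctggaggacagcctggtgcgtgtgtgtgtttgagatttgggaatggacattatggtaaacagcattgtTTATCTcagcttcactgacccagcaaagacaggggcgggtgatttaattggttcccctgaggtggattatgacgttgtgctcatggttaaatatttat
The first Il33 window holds a STAT6 match beginning 36 bases before the start and a TATA match 203 bases before it, and the second holds a TATA match 29 bases before its start. Each Il1rl1 window holds 1 GATA match, 217 bases before the first start and, on the minus strand, 103 bases before the second. Among 32851 promoters, windows of the same length held the GATA letters in 9.84%, the STAT6 letters in 5.74% and the TATA letters in 12.2%. These matches describe letters only.

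The libraries held 25350813 to 33650630 UMIs (unique molecular identifiers, the counted transcripts) as deposited. Of 38206 barcodes, 24377 were kept, 3405 to 4975 per library with 4528 to 5193 UMIs at the median. More barcodes exceeded the mitochondrial limit in EC-SAL (22.1% to 23.1%) than in EC-OVA (14.1% to 15.2%). Any pair of libraries shared 33 to 87 barcodes, 0.63% to 1.28% of the smaller library. The filter on low counts left Il33 to be tested in the Schwann-like, fibroblast-like, keratinocyte-like and pericyte and smooth muscle-like classes, Il1rl1 in the fibroblast-like, tendon and perichondrium-like and chondrocyte-like classes, and Il1rap in the fibroblast-like and keratinocyte-like classes. Clustering without the 3 genes gave 31 clusters, of which 29 were grouped into 17 classes named from marker genes and 2, with 618 and 321 cells, stayed unnamed. Levels are given as CPM, the UMIs of a gene over all UMIs of the same cells and library, scaled to 1000000. Free RNA can leave a few UMIs in cells that do not express a gene, and its part in low counts was not tested. The shares that follow are called background below as a reference, whatever their source. In chondrocyte-like cells 0.36% of EC-SAL and 0.61% of EC-OVA cells held an Il33 UMI, at median depths of 3481 and 4278 UMIs. For Il1rl1, 0.39% and 0.79% of keratinocyte-like cells held a UMI, at 7288 and 7662 UMIs.

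**Figure D1:**
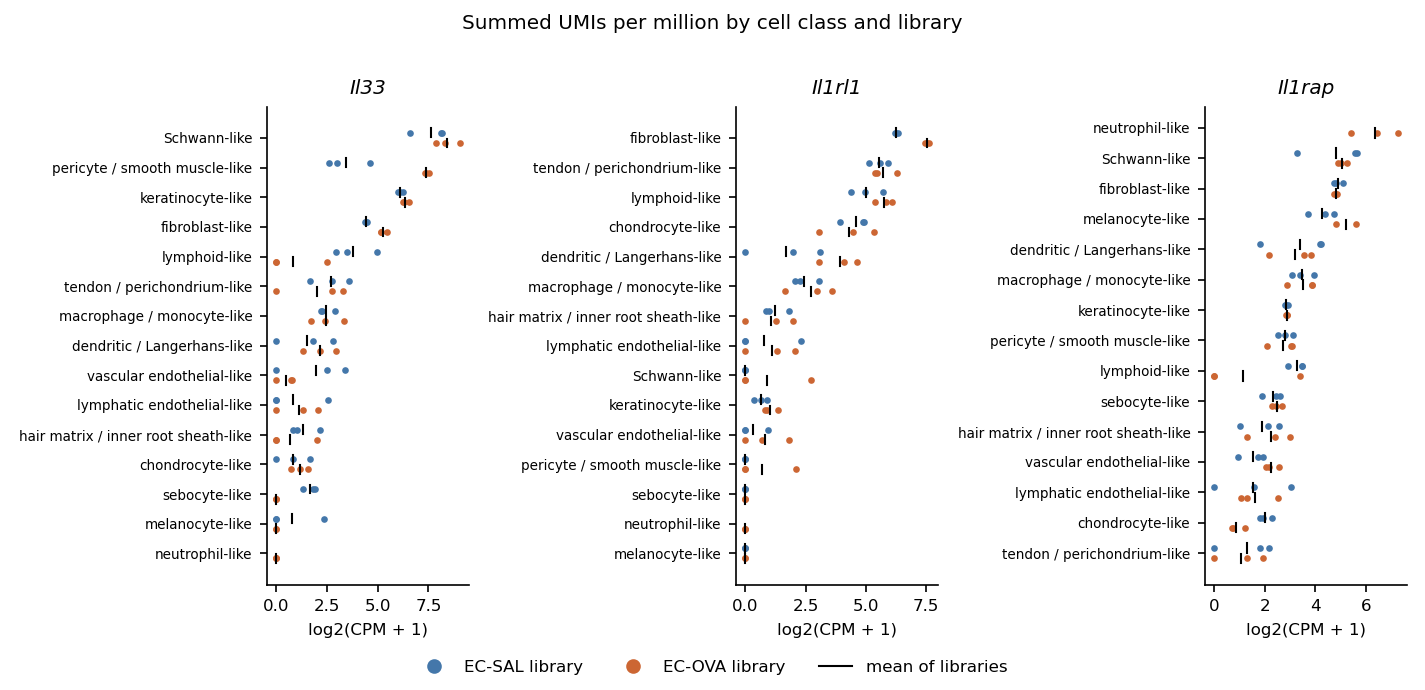
Level of Il33, Il1rl1 and Il1rap in each cell class as log2(CPM + 1), with 1 point per library coloured by group and a bar at the mean of 3 libraries. Il33 was highest in Schwann-like cells in both groups, and Il1rl1 in fibroblast-like cells.

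Across 15 classes, Il33 was highest in Schwann-like cells in both groups, at 219 ± 107 CPM in EC-SAL and 360 ± 151 in EC-OVA (SD, n = 3). Keratinocyte-like and fibroblast-like cells came next in EC-SAL, at 68.4 ± 5.33 and 20.4 ± 0.59 CPM. In EC-OVA the second place went to pericyte and smooth muscle-like cells with 168 ± 12.1 CPM, ahead of keratinocyte-like cells with 81.7 ± 9.78. The Schwann-like libraries spread from 95.6 to 527 CPM, and in EC-OVA their lowest library lay above every pericyte library. A single Schwann-like cell held most of the Il33 UMIs of its library, and its part in this order was not tested. Il1rl1 was highest in fibroblast-like cells in both groups, at 75.3 ± 2.83 and 183 ± 10.6 CPM. Tendon and perichondrium-like and lymphoid-like cells followed, with libraries that overlapped each other in both groups.

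Over all kept cells Il33 hardly differed between the groups, whereas the cells that carried it did. Its UMIs numbered 1320, 1030 and 1071 in EC-SAL and 988, 967 and 1045 in EC-OVA, or 47.3, 40.5 and 42.9 CPM against 44.3, 42.5 and 48.1. The groups overlapped, and the fitted log2 ratio of EC-OVA over EC-SAL was -0.01 ± 0.06 (SE, edgeR quasi-likelihood test, Benjamini-Hochberg adjusted p = 0.879). In this comparison 44.6% of 14921 genes tested passed. Keratinocyte-like cells held 86.5% of all Il33 UMIs in EC-SAL and 59.2% in EC-OVA. The share in fibroblast-like cells was 7.16% and 24.0%, and that in pericyte and smooth muscle-like cells 0.38% and 9.5%.

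**Figure D2:**
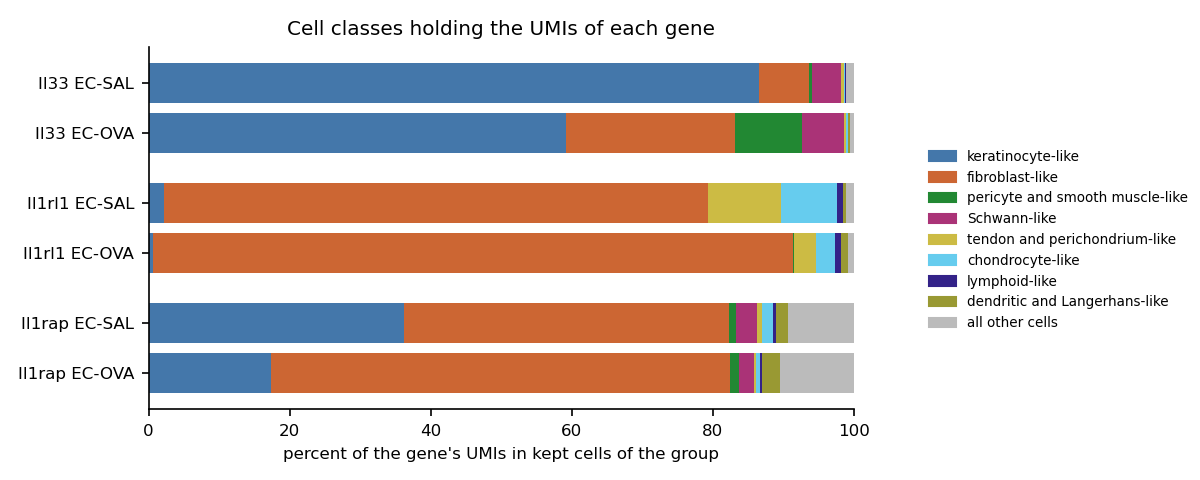
Percent of each gene's UMIs found in each cell class, as stacked bars for EC-SAL and EC-OVA with the 3 libraries of a group summed. The keratinocyte-like part of the Il33 bar shrinks from 86.5% to 59.2%, and the fibroblast-like part of the Il1rl1 bar grows from 77.1% to 90.8%.

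These shares follow the number of cells as well as the level per cell. Kept keratinocyte-like cells numbered 1974, 1749 and 1619 in EC-SAL and 870, 823 and 735 in EC-OVA. In sums over all cells, fewer cells of a type and less RNA per cell cannot be told apart. With each library's class levels weighted to the mean class mix of EC-SAL, Il33 stood at 43.7 ± 3.08 CPM in EC-SAL and 56.7 ± 6.01 in EC-OVA (SD, n = 3), a log2 ratio of 0.38 where the unweighted ratio was 0.04. The weighted values were 47.1, 41.4 and 42.5 CPM against 54.1, 52.5 and 63.6, with no overlap. This weighting has no test.

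In keratinocyte-like cells, the main carriers of Il33 by number of UMIs, the fitted log2 ratio was 0.26 ± 0.08 (SE, edgeR adjusted p = 0.132), short of the threshold of 0.05 that 3.0% of 11776 genes tested passed. The libraries held 74, 63.4 and 67.7 CPM in EC-SAL and 78.7, 73.7 and 92.6 in EC-OVA, and the groups overlapped at 74 and 73.7. An Il33 UMI was found in 24.1%, 23% and 24.3% of EC-SAL cells and in 20.5%, 18.3% and 20.5% of EC-OVA cells. This lower share did not hold once each cell was thinned to 1000 UMIs, where the means were 5.65% and 5.74%. Positive cells carried 2.33 UMIs in EC-SAL and 3.70 in EC-OVA. Their median depths were 8704 and 10172 UMIs, so these values are not at matched depth.

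The keratinocyte clusters differed among themselves. Cluster 8, basal-like and led by Mmp3, Il1r2 and Crispld2, held 48.7% of all Il33 UMIs in EC-SAL and 20.7% in EC-OVA. Its level was 115, 112 and 115 CPM in EC-SAL and 133, 111 and 137 in EC-OVA, with overlap, and the fitted ratio of 0.17 ± 0.08 did not pass (edgeR adjusted p = 0.552), with 0.053% of genes called. Suprabasal-like cluster 6, led by Mt4, Dlx5, Zfp750 and the differentiation keratin Krt1, differed clearly. It held 105, 79.7 and 89.7 CPM in EC-SAL and 185, 195 and 173 in EC-OVA.

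The groups did not overlap in cluster 6, and Il33 rose there by 1.03 ± 0.10 on the log2 scale (edgeR adjusted p = 0.000436), where 0.64% of genes were called. The share of positive cells thinned to 1000 UMIs was 7.61% and 11.5%. Summed keratinocyte markers in that cluster ran from 72435 to 72803 CPM in EC-SAL and from 75628 to 77673 in EC-OVA, and their part in the result was not tested. The change in cluster 6 exceeded that in cluster 8 by 0.85 ± 0.12 (adjusted p = 0.000476), a difference that 0.0522% of genes passed. Suprabasal-like cluster 7, led by Adh6a, Cnfn and Lypd5, gave 40, 27.7 and 28.9 CPM against 49.6, 21.8 and 107, a wide and overlapping spread. Neither its change of 0.96 ± 0.39 (adjusted p = 0.631, 0.0289% of genes called) nor its difference from cluster 8 of 0.75 ± 0.26 (adjusted p = 0.522, 0.194% called) passed.

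Il33 rose in fibroblast-like cells. They held 88, 80 and 77 UMIs in EC-SAL and 211, 291 and 219 in EC-OVA, or 19.8, 20.6 and 20.9 CPM against 35.4, 43.0 and 35.2. The groups did not overlap, and the fitted rise was 0.91 ± 0.12 on the log2 scale (edgeR adjusted p = 0.000521). In fibroblast-like cells 8.29% of 11233 genes were called. The share of positive cells was 4.24%, 3.59% and 4.07% against 7.61%, 9.01% and 7.47%, above the chondrocyte-like background in all libraries. Median depth was 4748.5 and 6237 UMIs, and after thinning to 1000 UMIs the means were 1.65% and 2.87%.

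Markers of the other Il33 carriers were summed in fibroblast-like cells. Keratinocyte markers came to 1198 to 1554 CPM in EC-SAL and 477 to 521 in EC-OVA, and pericyte markers to 454 to 577 and 504 to 626. Within cluster 5 pericyte markers summed to 49.4 to 59.9 CPM in EC-SAL and 285 to 402 in EC-OVA, and in cluster 9 to 101 to 111 and 67.0 to 90.3. The part of these sums in the Il33 values of the class and of both clusters was not tested. Among EC-OVA fibroblast-like cells, Krt14 was found in 27.8% of those with Il33 and in 26.4% of those without. Both groups of cells carried Dcn, a matrix proteoglycan of fibroblasts, in 100% and 98.4%.

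**Figure D3:**
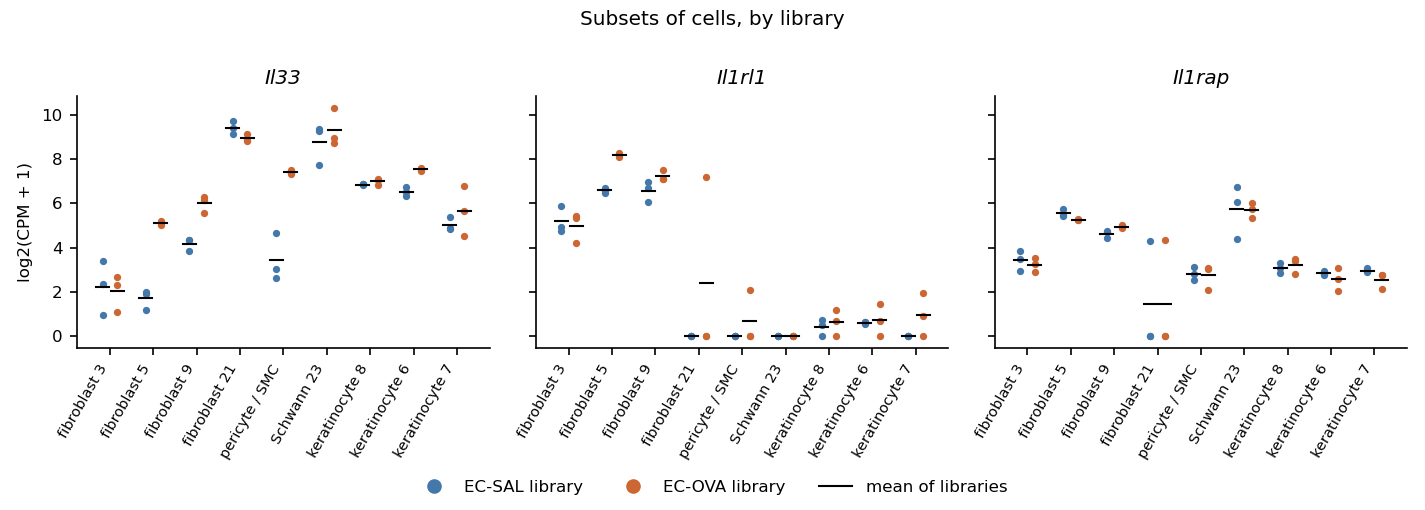
Level of the 3 genes as log2(CPM + 1) in fibroblast-like clusters 3, 5, 9 and 21, pericyte and smooth muscle-like cells, Schwann-like cluster 23 and keratinocyte-like clusters 8, 6 and 7, with 1 point per library coloured by group. Il33 in cluster 5 runs from 1.28 to 3 CPM in EC-SAL and from 31.0 to 35.6 in EC-OVA.

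Il33 rose in clusters 5 and 9. Cluster 5, led by Wfdc12, the Wnt agonist Rspo3, Ccn5 and the retinoid genes Crabp1 and Cyp26b1, held 5, 5 and 2 Il33 UMIs in EC-SAL and 89, 117 and 103 in EC-OVA. That was 2.80, 3 and 1.28 CPM against 31.0, 35.6 and 33.7, a rise of 3.76 ± 0.26 on the log2 scale (edgeR adjusted p = 5.0e-07) where 13% of genes were called. The groups lay far apart. In cluster 9, led by Myoc, Ifi211 and the matrix protein Mgp, the values were 19.0, 19.3 and 13.3 against 69.3, 77.8 and 46.9 CPM, again with no overlap. The rise was 1.91 ± 0.24 (adjusted p = 0.000566), with 2.36% of genes called.

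Clusters 3 and 21 differed from these. Cluster 3, led by Cd200, Mef2c and Col11a1, held 13, 1 and 5 Il33 UMIs in EC-SAL and 2, 10 and 7 in EC-OVA, too few for the fit of that cluster. Cluster 21, a small cluster led by Krt19, Vtn and Ebf2, had the highest level of any fibroblast-like cluster: 670, 829 and 550 CPM in EC-SAL and 453, 456 and 563 in EC-OVA. The groups overlapped, and its ratio of -0.42 ± 0.23 did not pass (edgeR adjusted p = 0.849, 0.342% of genes called). Il33 was found in 41.4% and 45.1% of its cells. Schwann markers summed to 172 to 969 CPM there in EC-SAL and 131 to 943 in EC-OVA, and their part in the level was not tested.

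The change of Il33 in cluster 5 exceeded that in cluster 9 by 1.83 ± 0.42 (edgeR adjusted p = 0.0115, 3.73% of genes called) and that in cluster 3 by 4.27 ± 0.67 (adjusted p = 0.000216, 3.53% called). It exceeded that in cluster 21 by 4.23 ± 0.43 (adjusted p = 8.68e-20, 0.632% called), and cluster 9 exceeded cluster 21 by 2.32 ± 0.34 (adjusted p = 3.55e-05, 0.101% called). Cluster 9 against cluster 3 gave 2.45 ± 0.61 and did not pass (adjusted p = 0.0682, 0.427% called). The excess over cluster 3 missed the threshold without EC-SAL 1 (adjusted p = 0.0838), and that over cluster 9 without any 1 of the EC-SAL libraries (adjusted p = 0.0535 to 0.0858).

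At a finer resolution of 2.0, chosen after the data were seen and described without a test, 95 fibroblast-like cells formed a cluster with no EC-SAL cell, led by Tnfsf11, Tnn, Ptprn, P4ha3 and Aqp5. Its 33, 31 and 31 EC-OVA cells held Il33 at 141, 104 and 121 CPM, in 39.4%, 38.7% and 38.7% of cells, and Il1rl1 at 818, 813 and 852 CPM, in 90.9%, 93.5% and 96.8%. Its cells were deep, with 14500 UMIs at the median against 6107.5 in other EC-OVA fibroblast-like cells. Their median doublet score was 0.0388 against 0.0243, and pericyte markers summed to 1456 to 2465 CPM with 1 of 8 at 0 (Higd1b). The part of either in these levels was not tested. Without these cells, the unfitted log2 ratio of group means in fibroblast-like cells went from 0.89 to 0.61 for Il33 and from 1.28 to 0.82 for Il1rl1, and in cluster 5 from 3.83 to 2.91 and from 1.61 to 1.05. Another finer cluster, led by Ccl19, a chemokine that attracts dendritic and T cells, Tnc and Cyp7b1, held 1, 0 and 0 Il33 UMIs in EC-SAL and 61, 88 and 49 in EC-OVA. The finer cluster led by Wfdc12, Edn3 and Ccn5, which shares leading genes with cluster 5, was not higher in Il33. There 6 of 635 EC-SAL cells and 3 of 585 EC-OVA cells held an Il33 UMI. Il1rl1 was found in 70 and 121 of the same cells.

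Pericyte and smooth muscle-like cells, the contractile cells of vessel walls, showed the largest fitted rise of Il33 among the classes tested. They held 3, 8 and 2 UMIs in EC-SAL and 110, 88 and 87 in EC-OVA, from similar numbers of cells (141, 116 and 128 against 140, 132 and 110). The levels were 7.11, 24.0 and 5.14 CPM against 181, 157 and 164. The groups did not overlap, and the rise was 3.82 ± 0.30 on the log2 scale (edgeR adjusted p = 1.2e-07), where 3.36% of 5025 genes were called. Positive cells numbered 7 of 385 in EC-SAL and 44 of 382 in EC-OVA, and each EC-OVA library contributed, with 13.6%, 10.6% and 10.0%. After thinning to 1000 UMIs the means were 0.88% and 6.70%. Without thinning, 4 of 1039 chondrocyte-like cells of EC-SAL held an Il33 UMI.

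The positive pericyte-like cells were few and strong, with 6.48 UMIs each in EC-OVA and 26 in the highest cell. All 44 carried Rgs5, a defining pericyte gene, 1 carried Pdgfra, a fibroblast receptor, and 63.6% carried Dcn against 29.6% of negative cells. Positive cells had 6367.5 UMIs at the median and negative cells 3824, so these shares are not at matched depth. In this class summed pericyte markers were 10426 to 11925 CPM in EC-SAL and 10488 to 11886 in EC-OVA. Fibroblast markers summed to 2753 to 3158 CPM in EC-SAL and 4050 to 4848 in EC-OVA, and keratinocyte markers to 1566 to 1951 and 365 to 484. The part of these sums in the result was not tested. The change of Il33 exceeded that in keratinocyte-like cells by 3.62 ± 0.31 (edgeR adjusted p = 8.0e-29, 2.3% of genes called) and that in fibroblast-like cells by 2.96 ± 0.37 (adjusted p = 1.21e-08, 1.43% called).

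Schwann-like cells, the glia of peripheral nerves, had the highest Il33 level and no difference that passed. They held 61, 55 and 22 UMIs in EC-SAL and 41, 51 and 84 in EC-OVA, or 274, 286 and 95.6 CPM against 234, 318 and 527. The groups overlapped, and the ratio of 0.72 ± 0.33 did not pass (edgeR adjusted p = 0.656, 0.261% of genes called). Nearly all of it lay in cluster 23, led by Cadm2, Rxrg, Cdh19, Cadm4 and Gpr37l1, with 61, 55 and 21 of the EC-SAL UMIs and 40, 50 and 81 of the EC-OVA UMIs. In cluster 23 the ratio was 0.56 ± 0.44 (adjusted p = 0.976), and 0.0% of 1761 genes were called. A single cell there held 58 Il33 UMIs, so it lay in the EC-SAL library with 61 or the EC-OVA library with 81. Its part in the level was not tested.

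Endothelium carried little Il33. Vascular endothelial-like cells held 10, 0 and 4 UMIs in EC-SAL and 1, 0 and 1 in EC-OVA, and lymphatic endothelial-like cells 0, 0 and 2 against 2, 1 and 0. EC-SAL 2 and EC-OVA 2 both held 0 in vascular cells, so the groups overlapped, and positive cells were at most 2.17% of a library. The difference in change between classes was still called: keratinocyte-like exceeded vascular endothelial-like cells by 3.64 ± 0.86 (edgeR adjusted p = 0.00348, 3.99% of genes called), and fibroblast-like cells exceeded them by 4.22 ± 0.94 (adjusted p = 0.00553, 3.3% called). Both rest on 16 vascular UMIs, and without EC-SAL 1, which held 10 of them, neither passed (adjusted p = 0.390 and 0.288). The first also missed the threshold without EC-OVA 2 (adjusted p = 0.0628). Fibroblast-like cells changed more than keratinocyte-like cells by 0.68 ± 0.14 (adjusted p = 0.00108), a difference that 8.35% of genes passed.

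**Figure D4:**
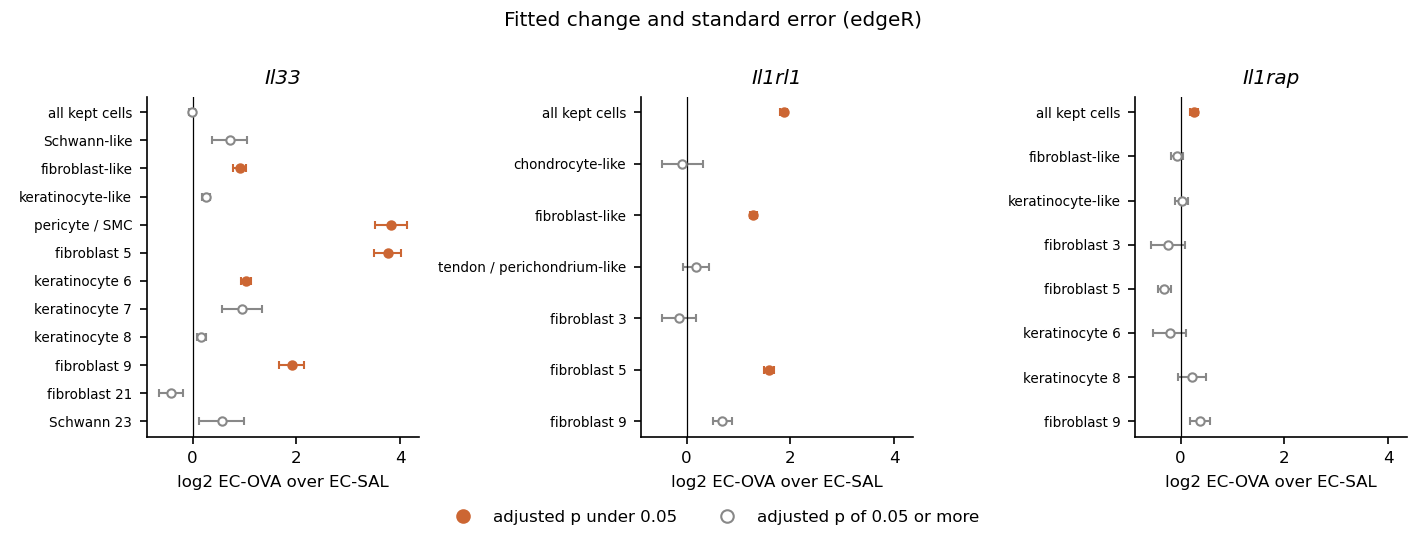
Fitted log2 ratio of EC-OVA over EC-SAL with its SE for each member in each class or cluster where it was tested, with filled points for an adjusted p under 0.05. Il33 is filled in fibroblast-like and pericyte and smooth muscle-like cells and in clusters 5, 6 and 9. Il1rl1 is filled in all kept cells, fibroblast-like cells and cluster 5, and Il1rap in all kept cells alone.

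Il1rl1 rose in the skin as a whole and in fibroblast-like cells. Over all kept cells the libraries held 438, 400 and 334 UMIs in EC-SAL and 1227, 1258 and 1316 in EC-OVA, or 15.7, 15.7 and 13.4 CPM against 55.0, 55.3 and 60.5. The groups did not overlap, and the rise was 1.87 ± 0.07 on the log2 scale (edgeR adjusted p = 7.16e-06). Fibroblast-like cells held 77.1% of its UMIs in EC-SAL and 90.8% in EC-OVA, and cluster 5 alone 40.6% and 69.8%. At the class mix of EC-SAL the values were 15 ± 1.03 and 32.2 ± 2.40 CPM (SD, n = 3), a log2 ratio of 1.11 against 1.93 as found.

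**Figure D5:**
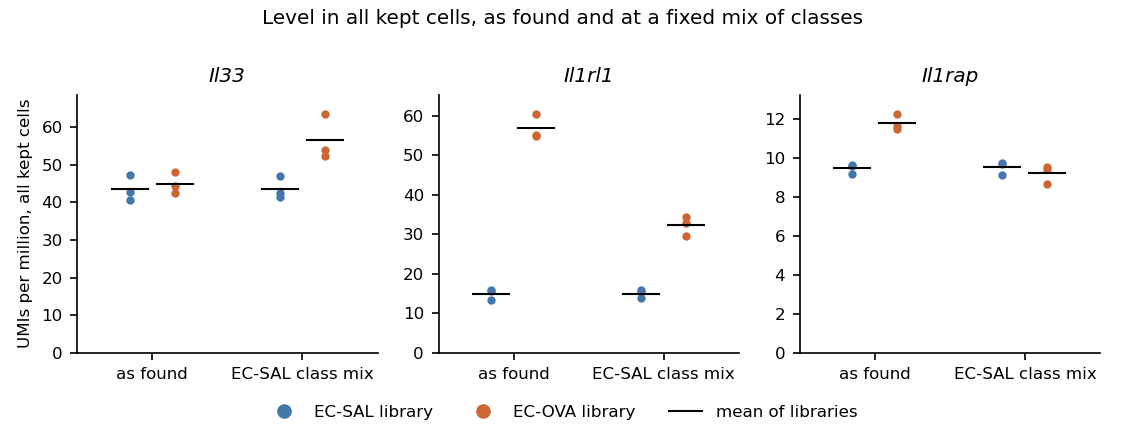
CPM over all kept cells per library for each member, as found and with class levels weighted to the mean class mix of EC-SAL. Il1rl1 in EC-OVA falls from 55.0 to 60.5 CPM as found to 29.6 to 34.3 at the fixed mix, still above the EC-SAL libraries at 13.8 to 15.8.

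In fibroblast-like cells Il1rl1 stood at 73.2, 78.5 and 74.1 CPM in EC-SAL and 183, 172 and 193 in EC-OVA, a rise of 1.28 ± 0.07 on the log2 scale (edgeR adjusted p = 1.46e-06). The groups did not overlap. Its UMIs were found in 11.9%, 12.5% and 11.6% of cells against 25.6%, 24.0% and 26.6%, and after thinning to 1000 UMIs in 4.84% and 11.4% on average. Positive cells held 3.18 UMIs each in EC-SAL and 4.85 in EC-OVA. Of the EC-OVA UMIs, 1107 lay in the 95 deep cells described above, and positive cells were deeper in EC-OVA, with 8205.5 UMIs at the median against 6282, so the values per positive cell are not at matched depth.

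Cluster 5, the same cluster that led the Il33 rise, led here too. Its Il1rl1 level was 93.4, 104 and 87.2 CPM in EC-SAL and 291, 268 and 306 in EC-OVA, a rise of 1.58 ± 0.09 on the log2 scale (edgeR adjusted p = 1.2e-07). Il1rl1, counted without telling the receptor from the secreted form, was found in 15%, 17.5% and 14.3% of its EC-SAL cells. In EC-OVA it was found in 35.7%, 37.0% and 38.7% of the cells of cluster 5. The part of the higher pericyte marker sum of this cluster, given above, was not tested for Il1rl1 either.

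In cluster 9 Il1rl1 stood at 101, 65.3 and 124 CPM in EC-SAL and 137, 136 and 182 in EC-OVA, without overlap, but the ratio of 0.68 ± 0.18 missed the threshold (edgeR adjusted p = 0.0756). It passed without EC-SAL 3 (adjusted p = 0.0312) or EC-OVA 2 (adjusted p = 0.0479). Cluster 3 held 26.0, 57.2 and 29.3 against 38.8, 42.3 and 17.3 CPM, with overlap and a ratio of -0.14 ± 0.32 (adjusted p = 0.949, 0.914% of genes called). The change in cluster 5 exceeded that in cluster 3 by 1.73 ± 0.28 (adjusted p = 0.000333) and that in cluster 9 by 0.89 ± 0.18 (adjusted p = 0.00351). The difference from cluster 9 missed the threshold without EC-SAL 1 (adjusted p = 0.0603) or EC-SAL 3 (adjusted p = 0.0602). In cluster 21 Il1rl1 was 0 in 5 libraries, and all 10 UMIs of EC-OVA 1 came from 1 cell. Cluster 9 against cluster 3 gave 0.82 ± 0.37 for Il1rl1 (adjusted p = 0.567).

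Other connective tissue carried Il1rl1 without a difference that passed. Cells of the tendon and perichondrium-like class held 58.9, 47.4 and 33.4 CPM in EC-SAL and 40.5, 42.5 and 76.1 in EC-OVA, overlapping, with a ratio of 0.18 ± 0.25 (edgeR adjusted p = 0.862, 0.584% of genes called). Chondrocyte-like cells held 29.3, 28.2 and 14.1 against 39.3, 7.41 and 21.1 CPM, also overlapping, with -0.08 ± 0.40 (adjusted p = 0.965, 1.42% called). The fibroblast-like change exceeded the tendon change by 1.10 ± 0.23 (adjusted p = 0.0115, 1.23% called), while its excess over chondrocyte-like cells of 1.38 ± 0.36 did not pass (adjusted p = 0.0624, 1.41% called). The first of these missed the threshold without EC-SAL 1, EC-OVA 1 or EC-OVA 2 (adjusted p = 0.165, 0.0598 and 0.0850). The second passed without EC-SAL 3 or EC-OVA 1 (adjusted p = 0.0188 and 0.000275).

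Lymphoid-like cells, which include the cells best known for ST2, held 3, 3 and 5 Il1rl1 UMIs in EC-SAL and 12, 14 and 8 in EC-OVA. That was 19.8, 30.3 and 50.7 CPM against 56.4, 65.9 and 40.3, and the groups overlapped. The share of positive cells was 6.86% ± 4.14 and 7.52% ± 1.44 (SD, n = 3), and 2.92% and 4.80% on average after thinning to 1000 UMIs. Regulatory T-like cells carried 3, 2 and 3 UMIs in EC-SAL and 8, 2 and 4 in EC-OVA, in 7 of 13 and 10 of 44 cells, all without a UMI of Il1rap. CD4 T-like cells held 0, 0 and 1 against 0, 6 and 3 UMIs, dermal gamma-delta T-like cells 1 UMI in all libraries and NK-like cells 0. No subset of group 2 innate lymphoid cells was named, so their Il1rl1 is not given. In lymphoid-like cells fibroblast markers summed to 172 to 298 CPM in EC-SAL and 193 to 2617 in EC-OVA and mast cell markers to 26.5 to 1592 and 65.4 to 3824, and their part in the counts was not tested.

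Basophil-like cells numbered 1 in EC-SAL and 44 in EC-OVA (8, 23 and 13 per library), so no comparison was made. They held 4 Il1rl1 UMIs in 4 cells, all of EC-OVA 2, where they made 129 CPM and 17.4% of cells. All 4 carried Hdc, the histamine-forming enzyme, and Gata2, and 3 carried the basophil protease Mcpt8. Neither Il33 nor Il1rap was found in the 44 EC-OVA cells. The usual bound of 3 over the 44 pooled cells, 6.82%, covers counting error of cells with a UMI alone, not the spread among libraries. It does not limit the share of cells that express them: the 40 cells without Il1rl1 held only 1319 UMIs at the median. No mast cell class was formed. Dendritic and Langerhans-like cells held 1, 0 and 3 Il1rl1 UMIs in EC-SAL and 18, 14 and 5 in EC-OVA, of which 13 were in 1 Langerhans-like cell of EC-OVA 1. Vascular endothelial-like cells held 0, 1 and 0 against 4, 1 and 0. The fibroblast-like change less the vascular change was -0.30 ± 1.13 for Il1rl1 (edgeR adjusted p = 0.969). The fibroblast-like change less that of keratinocyte-like cells, whose Il1rl1 share served as the background, was 0.46 ± 0.44 (adjusted p = 0.637).

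Il1rap, the chain shared by the receptors for IL-1, IL-33 and IL-36, was spread more widely. Over all kept cells it stood at 9.17, 9.64 and 9.62 CPM in EC-SAL and 11.5, 11.6 and 12.3 in EC-OVA, without overlap, and rose by 0.26 ± 0.07 on the log2 scale (edgeR adjusted p = 0.0199). This call was lost with DESeq2 (adjusted p = 0.0964) and without EC-SAL 1 (adjusted p = 0.0636). At the class mix of EC-SAL the means were 9.53 and 9.22 CPM, a log2 ratio of -0.05, so the direction turned when the mix was held. Of its UMIs, fibroblast-like cells held 46.2% in EC-SAL and 65.1% in EC-OVA, and keratinocyte-like cells 36.2% and 17.4%.

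Within classes Il1rap did not pass. Fibroblast-like cells held 25.6, 27.5 and 32.8 CPM in EC-SAL and 25.7, 27.9 and 27.5 in EC-OVA, overlapping, with a ratio of -0.07 ± 0.11 (edgeR adjusted p = 0.792). Keratinocyte-like cells held 6.03, 6.53 and 6.09 against 6.37, 6.17 and 6.34 CPM, overlapping, with 0.02 ± 0.13 (adjusted p = 0.967). In cluster 5, where Il33 and Il1rl1 both rose, Il1rap stood at 42.0, 43.8 and 52.6 against 36.6, 38.7 and 36.6 CPM. The ratio of -0.32 ± 0.13 did not pass (adjusted p = 0.130). In cluster 9 the values were 20.6, 24.8 and 25.5 against 28.8, 29.5 and 31.3 CPM, with 0.37 ± 0.19 (adjusted p = 0.468). No difference in its change between classes passed, for fibroblast-like less keratinocyte-like cells (-0.06 ± 0.19, adjusted p = 0.908), keratinocyte-like less vascular cells (-0.92 ± 0.70, adjusted p = 0.622) or fibroblast-like less vascular cells (-1.01 ± 0.62, adjusted p = 0.532).

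In EC-OVA the mean level of Il1rap was highest in neutrophil-like, melanocyte-like and Schwann-like cells, all from few UMIs. Schwann-like cells held 49.4, 46.9 and 8.69 CPM in EC-SAL and 28.5, 31.1 and 37.6 in EC-OVA, with overlap. Melanocyte-like cells had a UMI in 12.7% of EC-SAL and 18.3% of EC-OVA cells on average. Neutrophil-like cells, nearly all from EC-OVA, held 2, 1 and 1 UMIs there, or 153, 87.2 and 41.8 CPM, and no UMI of Il33 or Il1rl1. Pericyte and smooth muscle-like cells held 2, 2 and 3 against 2, 4 and 4 UMIs.

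UMIs of Il33, Il1rl1 and Il1rap were partly found in the same fibroblast-like cells. In EC-OVA, Il1rap was found in 20.5% of cells with Il1rl1 and in 12.9% of those without, at median depths of 8205.5 and 5618 UMIs. Il33 was found in 14.5% and 5.91% of the same cells. In EC-SAL the shares were 15.5% and 12.5% for Il1rap and 2.82% and 4.14% for Il33, at 6282 and 4553.5 UMIs. Deeper cells show any gene more often, and the part of depth in these shares was not tested.

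Downstream of the receptor, few genes of the signalling chain passed within classes. In fibroblast-like cells 1 of 15 tested adaptors and kinases fell and none rose, with a list median of -0.04 where the median of all 11233 genes tested was 0.00464, with 526 higher and 405 lower (8.29%). The one that fell was Myd88, the adaptor that ST2 recruits, from 130 ± 7.03 to 96.5 ± 7.48 CPM (log2 ratio -0.42 ± 0.07, edgeR adjusted p = 0.00295). Myd88 fell in pericyte and smooth muscle-like cells too, from 272 ± 31.9 to 147 ± 23.9 CPM (-0.92 ± 0.15, adjusted p = 0.000861), as 1 of 8 tested there, in vascular endothelial-like cells (-0.46 ± 0.11, adjusted p = 0.0362), as 1 of 14, and over all kept cells (-0.28 ± 0.05, adjusted p = 0.00181). In vascular endothelial-like cells 3.33% of genes were called. In keratinocyte-like cells 0 of 16 passed, with a median of -0.07 and Myd88 at -0.27 ± 0.07 (adjusted p = 0.0639). Of the inhibitors, 1 of 11 fell in fibroblast-like cells, the phosphatase gene Dusp1 (-0.37 ± 0.09, adjusted p = 0.0222). In keratinocyte-like cells 1 of 12 rose, Socs1, a suppressor of cytokine signalling (0.53 ± 0.06, adjusted p = 0.00519). None of 6 passed in pericyte and smooth muscle-like cells.

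Among other receptors of the IL-1 family, 1 of 3 tested in fibroblast-like cells rose and 1 fell, and these counts and those that follow stand beside 8.29% of all genes called in fibroblast-like and 3.0% in keratinocyte-like cells. Il1r1, the signalling receptor for IL-1, rose by 0.29 ± 0.07 (edgeR adjusted p = 0.0279). Il1r2, a decoy receptor for IL-1, fell from 542 ± 10.3 to 348 ± 27.3 CPM (-0.64 ± 0.07, adjusted p = 0.000106). Il1r2 was also the 1 of 5 that fell in keratinocyte-like cells (-0.49 ± 0.07, adjusted p = 0.00799). The direction was not shared by all classes. In lymphoid-like cells Il1r2 rose from 16.7 ± 5.71 to 149 ± 15.4 CPM (3.09 ± 0.38, edgeR adjusted p = 0.000258). It did not pass in pericyte and smooth muscle-like cells (-0.19 ± 0.26, adjusted p = 0.789). Of the IL-1 family cytokines, 1 of 3 fell in fibroblast-like cells, the antagonist Il1rn (-1.06 ± 0.27, adjusted p = 0.0279), and 0 of 8 passed in keratinocyte-like cells. Il1rn stood at only 4.89 and 2.30 CPM in fibroblast-like cells against 161 and 179 in keratinocyte-like cells, whose markers were also lower in fibroblast-like cells of EC-OVA (477 to 521 against 1198 to 1554 CPM), and their part in this fall was not tested. The medians in fibroblast-like cells were 0.21 for the receptors and -0.50 for the cytokines. Of the other epithelial cytokines and their receptors, 1 of 4 fell in keratinocyte-like cells. This was Tslp, from 53.3 ± 4.30 to 31.6 ± 9.11 CPM (-0.75 ± 0.14, adjusted p = 0.0224).

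Of the products known from ST2-bearing cells, 6 of 10 tested over all kept cells rose and 0 fell, with a median of 0.74 where that of all genes was -0.00276 and 44.6% of genes were called. Il6 rose by 0.85 ± 0.07, Ccl2 by 0.75 ± 0.07, Cxcl2 by 0.74 ± 0.06 and Hdc by 3.1 ± 0.33 (edgeR adjusted p = 5.99e-05, 0.000146, 7.97e-05 and 0.00021). Of the Hdc UMIs of EC-OVA, 819 of 1525 were in basophil-like cells. Within fibroblast-like cells 1 of 4 rose, Cxcl2 (0.55 ± 0.08, adjusted p = 0.00115), and within keratinocyte-like cells 1 of 5, Ccl2 (0.49 ± 0.06, adjusted p = 0.00603). Keratinocyte-like Ccl2 stood at 113 CPM in EC-SAL and 159 in EC-OVA, against 6044 and 6524 in fibroblast-like cells. The part of free RNA in this rise was not tested. In vascular endothelial-like cells 2 of 4 rose, Hdc and Il6. In lymphoid-like cells only Ccl1 passed, narrowly, from 20.3 ± 35.1 to 139 ± 63.5 CPM (2.97 ± 0.71, edgeR adjusted p = 0.0499996). Il13 stood at 49.5 ± 55.0 and 204 ± 103 CPM there and did not pass (2.21 ± 0.57, adjusted p = 0.0758). In Schwann-like cells Ccl2 rose by 0.95 ± 0.19 (adjusted p = 0.0415), where 0.261% of genes were called, and Cxcl2 did not pass (adjusted p = 0.270). In macrophage and monocyte-like cells the list went down, with 0 of 6 higher and 5 lower and a median of -1.33, where 8.75% of genes were called, and Cxcl2 fell by 1.91 ± 0.16 (adjusted p = 4.48e-07). In dendritic and Langerhans-like cells 0 of 6 rose and 4 fell, with a median of -1.19, where 10.9% of genes were called. Of the proteases known to cut IL-33, 4 of 9 rose and 1 fell over all kept cells, among them the granzyme gene Gzmb (3.33 ± 0.43, adjusted p = 0.000551) and the cathepsin gene Ctss (1.15 ± 0.06). Neither the 2 tested in fibroblast-like cells nor the 3 in keratinocyte-like cells passed. Of the nuclear alarmins, Hmgb1 and Hmgb2 rose in fibroblast-like cells (0.31 ± 0.06 and 0.59 ± 0.11), 2 of 4 tested.

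Of 20 genes known to respond to tissue dissociation, 10 fell and 1 rose in fibroblast-like cells, with a median of -0.26, and Fos, an immediate early gene, fell by 0.58 ± 0.10 (edgeR adjusted p = 0.00419). In cluster 5 all but 4 of the 20 fell (16, median -0.52) and 0 rose, beside 583 of 9314 genes that fell there. In fibroblast-like cells 405 of 11233 genes fell. In pericyte and smooth muscle-like cells 5 of 19 fell, beside 83 of 5025 genes, and in keratinocyte-like cells 2 of 20 fell and 1 rose. The part of this in the member values was not tested.

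The genes whose levels over the 15 classes were most like those of Il33, by Pearson's r of log2(mean CPM + 1) among 9941 genes, were Il34 (0.87), Actg2 (0.82), Ptprn (0.81), Ngfr (0.80) and Scn7a (0.80). For Il1rl1 they were Tspan11 (0.82), Cpxm1 (0.81), Hapln3 (0.81), Ssc5d (0.81) and Pdgfra (0.81), and for Il1rap Adprh (0.82), Acod1 (0.82), Man1b1 (0.80), Zfp608 (0.79) and Atp6v0d1 (0.78). The classes share their libraries and differ in depth, and these values describe likeness only.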

How the data were processed

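Single-cell transcriptomes of 6 libraries were measured with the 10x Genomics 3′ kit. The deposited matrices hold raw UMI counts per gene and barcode, made by the authors with Cell Ranger 3.1.0 per the file headers, and STAR and mm10 are listed in the submitters' processing notes. The lowest barcode of each deposited library held 500 UMIs. Barcodes with at least 300 genes and at most 15% mitochondrial UMIs were kept, and the highest Scrublet scores (0.8% per 1000 barcodes) were left out as doublets, because the automatic threshold marked only 0.026% to 0.304%. Cells of all libraries were clustered together with scanpy 1.11.5 (2000 variable genes without the 3 members, 40 components, 20 neighbours, Leiden resolution 1.0), with no batch correction. A class was named from marker genes, and 2 clusters stayed unnamed, 1 of them after its leading genes were seen. UMIs were summed per library and class with at least 10 cells, so each library counted once.

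Sums were tested over all genes with edgeR 4.0.16 (R 4.3.3; filterByExpr, TMM scaling, quasi-likelihood test, Benjamini-Hochberg threshold 0.05), with an interaction term for differences between classes. The fit was tested on simulated counts. DESeq2 1.42.0, other scalings, filters, resolutions and depths, and leaving out each library were alternatives. Shares of cells are given without a test. Gene sequences and annotation came from RefSeq and GENCODE M21, which matched 32158 of 32285 gene identifiers. Named genes were the 3 members, up to 4 genes of each list past the threshold with the smallest adjusted p, the 5 genes most alike in level and the leading 5 genes of a cluster by fold. Members and lists were chosen with earlier results of these data known. Further pairs of classes and clusters, and the finer clusters, were chosen after seeing the data. UMIs were not thinned except where shares of cells were compared. Depth was 21743490 to 27918691 kept UMIs per library.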

Additional observations from a re-analysis of the deposited data

Results flagged for a closer look

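For 13 contrasts the change from EC-SAL to EC-OVA differed between cell types by the interaction test (edgeR, adjusted p under 0.05), given here as the difference in log2 ratio. For Il33 the fibroblast-like change exceeded the keratinocyte-like change by 0.68 and the vascular endothelial-like change by 4.22, and the keratinocyte-like change exceeded the vascular one by 3.64. The pericyte and smooth muscle-like change of Il33 exceeded the keratinocyte-like change by 3.62 and the fibroblast-like change by 2.96. Among fibroblast-like clusters, the Il33 change in cluster 5 exceeded that in cluster 3 by 4.27, in cluster 9 by 1.83 and in cluster 21 by 4.23, and that in cluster 9 exceeded cluster 21 by 2.32. Among keratinocyte-like clusters, the Il33 change in cluster 6 exceeded that in cluster 8 by 0.85. For Il1rl1 the fibroblast-like change exceeded the tendon and perichondrium-like change by 1.10, and the change in cluster 5 exceeded that in cluster 3 by 1.73 and in cluster 9 by 0.89. Of the 13, only the first 3 named pairs of classes were planned, and the others were chosen after seeing the data.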

How the results depend on the processing

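Of 108 alternative values for the 9 member results past the threshold, 106 kept the call and direction and 2 were weaker, both for Il1rap over all kept cells (DESeq2, 0.27, adjusted p = 0.0964, and without EC-SAL 1). Without any 1 library, Il1rl1 over all kept cells ranged from 1.81 to 1.92, fibroblast-like Il33 from 0.77 to 0.97 and Il1rl1 from 1.24 to 1.33, pericyte and smooth muscle-like Il33 from 3.46 to 4.68, and cluster 5 Il33 from 3.51 to 3.96. Depth limited endothelial, lymphoid, basophil-like and cluster 3 values, which rest on a few UMIs, and counting error alone can reorder them.

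The log2 ratios that turned or moved follow. Il33 over all kept cells was 0.044 without scaling. Chondrocyte-like Il1rl1 was 0.068 at resolution 0.5, 1.65 at resolution 2.0 and 1.69 with doublets kept. Fibroblast-like Il1rap was 0.035 at resolution 2.0. Keratinocyte-like Il33 passed at resolution 0.5 (0.37, adjusted p = 0.0242). Keratinocyte-like Il1rap was -0.0032 without the low-count filter and -0.021 with the stricter mitochondrial limit. At the same mix of clusters in both groups, fibroblast-like Il33 was 1.13, keratinocyte-like Il33 0.57 and Il1rap 0.085. Without the finer cluster of 95 cells, Il1rl1 was 1.46 over all kept cells and 0.82 in fibroblast-like cells, and Il33 was 0.61. The causes were not tested.

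Shares changed sign on thinning for keratinocyte-like Il33 (0.090 percentage points at 1000 UMIs), Schwann-like Il33 (-0.29), chondrocyte-like Il1rl1 (0.20 at 2000 UMIs), fibroblast-like Il1rap (-0.49 at 2000 UMIs) and keratinocyte-like Il1rap (-0.11). By thinned share, 1 of the 3 leading EC-OVA classes for Il1rap was shared with the order by CPM.

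Counts of genes called without the low-count filter were 29 in Schwann-like, 301 in chondrocyte-like, 1528 in fibroblast-like, 708 in keratinocyte-like and 131 in tendon and perichondrium-like cells. DESeq2 called 68 in chondrocyte-like, 522 in fibroblast-like and 83 in pericyte and smooth muscle-like cells. With doublets kept, 1 was called in Schwann-like and 58 in chondrocyte-like cells, and 49 in the latter at resolution 2.0. The replicate numbers were not taken to pair the libraries: same-numbered libraries deviated with correlations of 0.0493, 0.0393 and -0.0541 over all kept cells, 0.0867, 0.0803 and -0.0222 in fibroblast-like cells, and 0.159, 0.119 and 0.0165 in keratinocyte-like cells, so not every pair exceeded 0.1. With the replicate block 63 genes were called in tendon and perichondrium-like cells in place of 40, and no call of a member changed.

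Leaving out each library in turn, results that turned or crossed the threshold ranged as follows. Over all kept cells Il33 ran from -0.059 to 0.042 and Il1rap from 0.23 to 0.30. In chondrocyte-like cells Il1rl1 ran from -0.73 to 0.34, in tendon and perichondrium-like cells from -0.15 to 0.38, and Il1rap ran from -0.17 to 0.043 in fibroblast-like and from -0.025 to 0.059 in keratinocyte-like cells. By cluster, Il1rl1 ran from -0.41 to 0.28 in cluster 3 and from 0.46 to 0.89 in cluster 9, Il1rap from -0.43 to 0.011 in cluster 3 and from -0.57 to 0.049 in cluster 6, and Il33 from -0.091 to 0.86 in cluster 23. Differences of Il33 change ran from 2.51 to 4.23 for keratinocyte-like less vascular, from 3.03 to 4.89 for fibroblast-like less vascular, from 3.49 to 4.92 for cluster 5 less cluster 3, from 1.62 to 1.95 for cluster 5 less cluster 9, from 1.59 to 2.96 for cluster 9 less cluster 3 and from 0.05 to 1.06 for cluster 7 less cluster 8. For Il1rl1 they ran from -3.45 to 1.30 for fibroblast-like less vascular, from 0.86 to 1.40 less tendon, from 0.96 to 2.03 less chondrocyte-like, and from 0.64 to 1.20 for cluster 5 less cluster 9. Genes called ran from 3 to 21 in Schwann-like, 45 to 132 in chondrocyte-like, 598 to 819 in fibroblast-like, 70 to 309 in keratinocyte-like, 80 to 186 in pericyte and smooth muscle-like and 20 to 56 in tendon and perichondrium-like cells. The difference in the share of Il1rl1-positive cells ran from -1.06 to 0.23 in chondrocyte-like and from -0.63 to 3.05 in lymphoid-like cells. Classes reclustered without the called genes were not run, and no mitochondrial limit was tried only over all kept cells.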

Other observations

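Barcodes with at least 2 mast cell markers numbered 9 in EC-SAL and 19 in EC-OVA as deposited, of which 5 and 9 were kept, and 1 kept barcode in each group held an Il1rl1 UMI. Before any filter, 2 of the 9 and 5 of the 19 held one. In conventional type 2 dendritic-like cells Il1rl1 was counted with 1, 1 and 1 UMIs in EC-SAL and 2, 10 and 3 in EC-OVA. The unnamed lymphoid clusters, pooled (58 cells in EC-SAL and 80 in EC-OVA), held 0, 0 and 1 against 4, 6 and 1. The pool joined 104 cells led by Bmp2, Ccdc184, Hlf, Palld and Lmo4 with 30 led by Ube2c, Nuf2 and Rrm2. It also held 4 cells led by Msmp, Prg4 and Fzd9, and the UMIs were not split among these clusters. The list that the 104 cells matched best was that of group 2 innate lymphoid cells. With 2 of its 9 markers raised, where 3 were required, they stayed unnamed. Sebocyte-like and melanocyte-like cells held no Il1rl1 UMI in any library.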
